A study of Mus musculus with 6 samples.

Results

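The mouse mitochondrial genome encodes 13 mRNAs, 2 rRNAs and 22 tRNAs, and these 37 genes, chosen as every gene whose symbol starts with mt-, are described here among the 45320 genes of the deposited tables. The RNA came from brown adipose tissue, taken whole, of C57BL/6 mice that were put on a high-calorie diet rich in fat and sugar when 4 weeks old and were divided after 4 weeks on it. The treated group stayed on that diet with RO5508887 added, a compound made to inhibit BACE1, a membrane protease (samples 17, 33 and 35), and the untreated group stayed on it without the compound (samples 13, 14 and 15). Samples 33 and 35 had the same value for each of the 45320 genes, a difference smaller than sampling noise, and were counted as 1 library, treated 33/35, so 2 treated libraries were set against 3 untreated ones. The labels give neither the length of the drug treatment nor whether samples came from separate animals, so a p-value here measures only how these samples vary, and that variation may be technical.

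Mitochondrial DNA is a small circle present in many copies in each mitochondrion. Both of its strands are transcribed into long precursors, and most mRNAs and rRNAs are released when the tRNAs that lie between them are cut out. The mRNAs encode membrane subunits of respiratory chain complexes I, III and IV and of the ATP synthase, which are assembled with many nuclear-encoded subunits. Complex II is encoded by the nucleus alone. In brown fat this chain burns fuel at high rate, and the proton gradient is spent as heat through UCP1.

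Libraries differed in tissue content before any comparison of groups. Values are FPKM, fragment numbers scaled to transcript length and to library size. Of 16 skeletal muscle markers, 15 were in the tables. They took 2.44% and 1.05% of the FPKM outside mt- genes in treated 17 and treated 33/35, against 0.00752%, 5.79% and 0.00574% in untreated 13, 14 and 15. Ckm, the muscle creatine kinase, measured 1262 and 531 FPKM in the treated libraries, against 2.25, 2733 and 1.46 FPKM in untreated 13, 14 and 15. Of the defining markers only Myh4, a fast muscle myosin, was listed at 0, in both treated libraries and in untreated 14, where other muscle genes were high, so a listed 0 can be a failed estimate. All 12 brown adipocyte markers were above 0 in every library and took 1.58% and 1.81% in the treated libraries, against 1.98%, 0.810% and 2.03% in untreated 13, 14 and 15. Ucp1 itself measured 1119 and 1321 FPKM in the treated libraries, against 1837, 227 and 1912 FPKM. Untreated 14 thus held the most muscle and the least brown fat RNA. Relative to untreated 13, sequencing depth read from the steps between low values was 1.01 in treated 17 and 0.960 in treated 33/35, against 0.811 in untreated 14 and 0.881 in untreated 15. The number of reads is unknown. In bulk tissue, fewer cells of a type and less RNA per cell cannot be told apart.

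Neighbouring mitochondrial genes abut or overlap, and several have near-identical nuclear copies, both of which bear on how their reads were counted. Sequences below are from the GENCODE M21 transcripts (GRCm38), 5′ to 3′. The first set shows the longer overlaps between mRNAs: capitals mark bases that a gene shares with its neighbour. mt-Atp6 and mt-Co3 share 1 base, which is not shown. mt-Atp8 (chrM:7766-7969, plus strand) shares 43 bases with mt-Atp6, mt-Nd4l shares 7 with mt-Nd4, and mt-Nd5 on the plus strand shares 14 with mt-Nd6 on the minus strand. The ends shown lie at chrM:10114-10173 for mt-Nd4l, chrM:13506-13565 for mt-Nd5 and chrM:13552-13611 for mt-Nd6.
mt-Atp8: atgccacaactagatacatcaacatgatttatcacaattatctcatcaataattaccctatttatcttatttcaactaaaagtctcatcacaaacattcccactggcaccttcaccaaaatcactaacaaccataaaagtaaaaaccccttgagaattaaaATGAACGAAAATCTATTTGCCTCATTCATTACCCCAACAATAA
mt-Nd4l, last 60 bases: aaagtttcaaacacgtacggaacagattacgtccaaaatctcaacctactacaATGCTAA
mt-Nd5, last 60 bases: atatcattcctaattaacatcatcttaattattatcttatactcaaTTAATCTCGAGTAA
mt-Nd6, last 60 bases: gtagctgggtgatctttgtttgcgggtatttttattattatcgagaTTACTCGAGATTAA

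The second set shows how little separates a mitochondrial gene from its copy, with differing bases in capitals. Gm28438 on chromosome 1 differs from mt-Nd3 by T3C alone over its 345 bases, counted from 1 at the first base of mt-Nd3. The stretch shown lies at chr1:24613087-24613119 (minus strand) in Gm28438 and at chrM:9459-9491 (plus strand) in mt-Nd3. Gm13340 on chromosome 2 differs from mt-Co1 at 37 of 1545 bases. The stretch shown has 4 differences and lies at chr2:22589129-22589188 (minus strand) in Gm13340. In mt-Co1 it lies at chrM:5787-5846 (plus strand, bases 460 to 519).
mt-Nd3, bases 1 to 33: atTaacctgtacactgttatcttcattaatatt
Gm28438, opposite bases 1 to 33: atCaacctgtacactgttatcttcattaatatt
mt-Co1, bases 460 to 519: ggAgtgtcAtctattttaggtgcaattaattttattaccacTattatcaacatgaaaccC
Gm13340, opposite bases 460 to 519: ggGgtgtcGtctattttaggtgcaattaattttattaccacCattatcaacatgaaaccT

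The third set gives 3 of the tRNAs that separate the mRNAs and rRNAs, since no tRNA had a value above 0. mt-Tv, the valine tRNA, lies between both rRNAs (chrM:1025-1093), mt-Tm, the methionine tRNA, just before mt-Nd2 (chrM:3845-3913), and mt-Th, the histidine tRNA, just after mt-Nd4 (chrM:11546-11612), all on the plus strand.
mt-Tv: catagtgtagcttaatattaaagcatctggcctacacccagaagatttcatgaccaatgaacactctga
mt-Tm: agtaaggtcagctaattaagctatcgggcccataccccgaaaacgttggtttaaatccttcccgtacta
mt-Th: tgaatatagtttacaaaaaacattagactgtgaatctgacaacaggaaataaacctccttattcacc

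Mitochondrial transcripts were among the most abundant of all genes in every library. The 37 genes together held 17.4% and 18.9% of the FPKM sum in treated 17 and treated 33/35, against 19.3%, 14.6% and 21.2% in untreated 13, 14 and 15. Both treated values were above untreated 14 and below untreated 13 and 15. The means were 18.2% ± 1.03 (SD, n = 2) in treated and 18.4% ± 3.41 (SD, n = 3) in untreated libraries, a difference of -0.21 percentage points (two-sided exact permutation p = 1). With 2 libraries against 3 this test cannot give a p below 0.2. The sign of the difference was positive, at 1.22 points, without untreated 15 and reached -2.10 points without untreated 14, the library with the most muscle transcripts. FPKM weights short genes heavily. As FPKM times annotated gene length, which estimates the share of fragments, mt- genes held 4.42% and 4.91% in treated 17 and treated 33/35, against 5.01%, 3.78% and 5.56% in untreated 13, 14 and 15.

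The mRNAs of complex I had 7 members. Nd1 helps to form the quinone pocket, Nd2, Nd4 and Nd5 are the antiporter-like proton-pumping subunits, and Nd3, Nd4l and Nd6 are small membrane subunits. mt-Nd1 measured 7531 and 7439 FPKM in treated 17 and treated 33/35, against 8291, 6695 and 9230 FPKM in untreated 13, 14 and 15. mt-Nd2 measured 6960 and 7582 FPKM in the treated libraries, against 7986, 6207 and 8944 FPKM. mt-Nd4 measured 5952 and 6580 FPKM in the treated libraries, against 6594, 5287 and 7339 FPKM. In all 3 the treated values lay above untreated 14 and below untreated 13 and 15. mt-Nd5 measured 4002 and 4111 FPKM in treated 17 and treated 33/35, against 4592, 3839 and 4587 FPKM in untreated 13, 14 and 15. mt-Nd6 measured 3988 and 4119 FPKM in the treated libraries, against 4649, 3867 and 4586 FPKM. These last 2 genes varied least between libraries. mt-Nd3 measured 3133 and 3500 FPKM in the treated libraries, against 3789, 2481 and 4178 FPKM in untreated 13, 14 and 15. mt-Nd4l measured 4325 and 4842 FPKM in the treated libraries, against 4887, 3727 and 5513 FPKM. Both were lowest in untreated 14 and highest in untreated 15.

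mt-Nd6 is the one mRNA of the light strand, so it comes from a separate precursor, yet its level followed that of mt-Nd5 from the opposite strand almost exactly. The ratio of mt-Nd6 to mt-Nd5 in FPKM was 0.996 and 1.00 in treated 17 and treated 33/35, against 1.01, 1.01 and 1.00 in untreated 13, 14 and 15. Among the 78 pairs of mRNAs this ratio varied least, with a highest value 1.02 times the lowest, and the next pair, mt-Atp6 and mt-Cytb, varied 1.03 times. The genes share only the 14 bases shown above. Whether the counting used strand is not given in the sources used here, so reads of mt-Nd6 and of antisense RNA from the other strand cannot be told apart. Against the sum of the 12 heavy-strand mRNAs, mt-Nd6 stood at 0.0408 and 0.0376 in treated 17 and treated 33/35, against 0.0400, 0.0497 and 0.0359 in untreated 13, 14 and 15, and the groups overlapped (exact permutation p = 1).

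Complexes III and IV showed the same order of libraries, with 1 exception. mt-Cytb, the haem-bearing core of complex III, measured 9178 and 10521 FPKM in treated 17 and treated 33/35, against 10530, 7013 and 11886 FPKM in untreated 13, 14 and 15. mt-Co1, which holds the site of oxygen reduction, measured 10679 and 12379 FPKM in the treated libraries, against 11478, 9310 and 13295 FPKM, so that treated 33/35 exceeded untreated 13. mt-Co2, which receives electrons from cytochrome c, measured 6792 and 7420 FPKM in the treated libraries, against 7939, 5486 and 8852 FPKM in untreated 13, 14 and 15. In mt-Cytb, treated 33/35 and untreated 13 differed by less than 10 FPKM. mt-Co3, the third core subunit, measured 6174 and 6711 FPKM in the treated libraries, against 6844, 4932 and 7869 FPKM.

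The ATP synthase mRNAs included the member with the highest value. mt-Atp8, a small membrane subunit and the shortest of the mRNAs at 204 bases, ranked first of all genes in each library. It measured 25972 and 30291 FPKM in treated 17 and treated 33/35, against 34907, 17396 and 37143 FPKM in untreated 13, 14 and 15. It made up 25.5% and 26.6% of the mt- mRNA FPKM in the treated libraries, against 28.9%, 21.3% and 28.0% in untreated 13, 14 and 15. Weighted by length, its share was only 6.54% and 6.90% in the treated libraries, against 7.72%, 5.19% and 7.42%. mt-Atp6, the subunit that forms the proton channel, measured 7128 and 8207 FPKM in the treated libraries, against 8283, 5377 and 9058 FPKM in untreated 13, 14 and 15. mt-Atp8 stood 3.64 and 3.69 times above mt-Atp6 in the treated libraries, against 4.21, 3.24 and 4.10 times in untreated 13, 14 and 15. Both genes overlap on 1 transcript, so a fragment from the shared bases may be counted to either gene. mt-Atp6 also has an identical nuclear copy of about equal FPKM, Gm10925, described below. No copy of mt-Atp8 was found among annotated transcripts, the only sequences searched, so an unannotated copy would have been missed. The last 43 bases of mt-Atp8 are shared with mt-Atp6 and so lie in Gm10925 too. Reads of either gene may thus be split with a nuclear copy. The ratio of mt-Atp8 to mt-Atp6 is uncertain for that reason.

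The rRNAs were far lower than the mRNAs. mt-Rnr1, the RNA of the small mitochondrial ribosomal subunit (chrM:70-1024), measured 1110 and 1334 FPKM in treated 17 and treated 33/35, against 1744, 691 and 1482 FPKM in untreated 13, 14 and 15. mt-Rnr2, the RNA of the large subunit (chrM:1094-2675), measured 1353 and 1733 FPKM in the treated libraries, against 1998, 823 and 1788 FPKM. Both treated libraries lay inside the untreated range for both genes. Summed FPKM of the rRNAs over that of the mRNAs was 0.0242 and 0.0270 in the treated libraries, against 0.0310, 0.0186 and 0.0247 in untreated 13, 14 and 15. Its log2 difference was 0.077 (exact permutation p = 1). Labels describe total RNA libraries and do not say whether rRNA was removed, so this ratio may not reflect the ratio in the tissue. The ratio of mt-Rnr2 to mt-Rnr1 was 1.22 and 1.30 in treated 17 and treated 33/35, against 1.15, 1.19 and 1.21 in untreated 13, 14 and 15. Both treated values were higher than all untreated ones, with a log2 difference of 0.092 and the smallest p that the test allows (exact permutation p = 0.2; 0.7 adjusted over 7 measures).

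All 22 tRNAs, 59 to 75 bases long, were listed at 0 in every library, so no ratio of tRNA to mRNA could be computed. The same held for other short genes. Of 2366 annotated nuclear genes of 100 bases or less in the tables, 0 had a value above 0 in any library, against 256 of 3250 genes of 101 to 150 bases. A listed 0 therefore does not show that the tRNAs were absent.

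**Figure D1:**
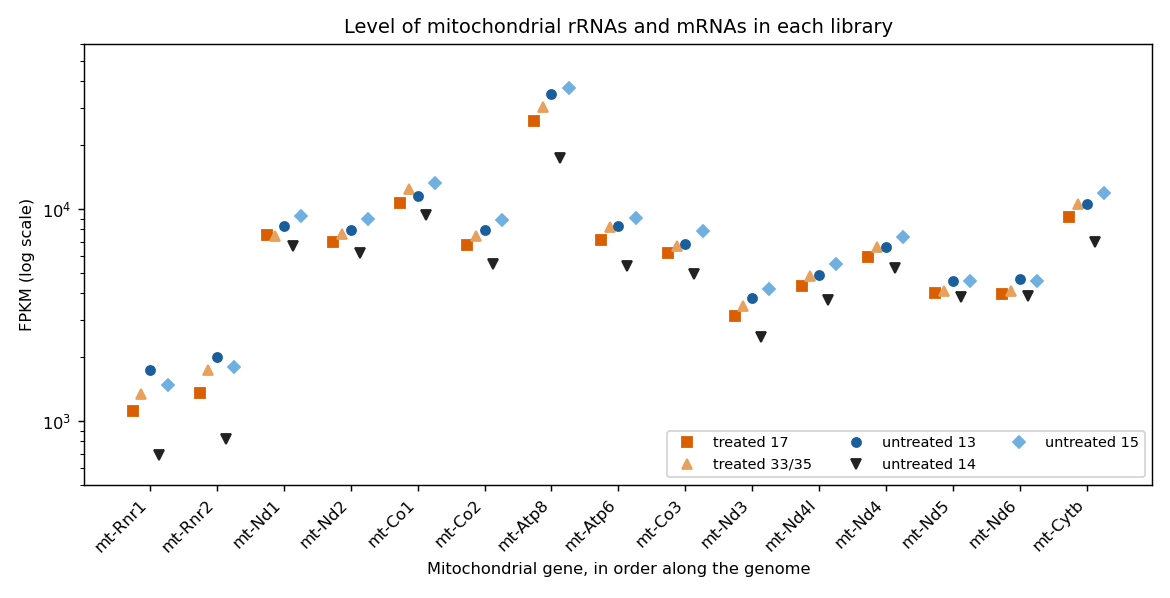
FPKM (log scale) of the 2 rRNAs and 13 mRNAs in each library, in their order along the mitochondrial genome; each point is 1 library, with treated libraries left of untreated ones. Untreated 14 was the lowest library for all 15 genes, and mt-Atp8 was the highest gene in each library, from 17396 to 37143 FPKM.

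The order of the libraries was nearly the same for every mitochondrial gene with a value. Untreated 14 was lowest for 15 of 15 genes, as it was for 43.6% of the 13527 genes tested. In 14 of 15 genes both treated libraries lay above untreated 14 and below untreated 13 and 15, an order found in 16.2% of all tested genes, and mt-Co1 was the exception. In 13 of 15 genes treated 17 was also below treated 33/35 and both below untreated 13 and 15, which is the reverse of the order of muscle marker shares apart from the order within untreated 13 and 15. The part of muscle content in these differences was not tested. The share of all tested genes in this stricter order was not computed, so the count of 13 is no result about these genes. Genes measured in the same 5 libraries, and all but mt-Nd6 from 1 strand, are not independent, so these counts describe the libraries.

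Untreated 14 was not lower by the same factor for all members. Relative to the mean of untreated 13 and 15, mt-Rnr1 stood at 0.428 and mt-Rnr2 at 0.435 in untreated 14. Among mRNAs the ratio ran from 0.483 for mt-Atp8 to 0.837 for mt-Nd6. The 7 complex I mRNAs had ratios of 0.623 to 0.837, and the other mRNAs 0.483 to 0.752. Across the 13 mRNAs the ratio had a Spearman rho of 0.52 with gene length. All mRNAs but mt-Nd6 share a precursor, and all share a library, so this is a description. In treated 17 the same ratio was 0.688 for mt-Rnr1, 0.721 for mt-Atp8 and 0.872 for mt-Nd5. In treated 33/35 these genes stood at 0.827, 0.841 and 0.896.

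**Figure D2:**
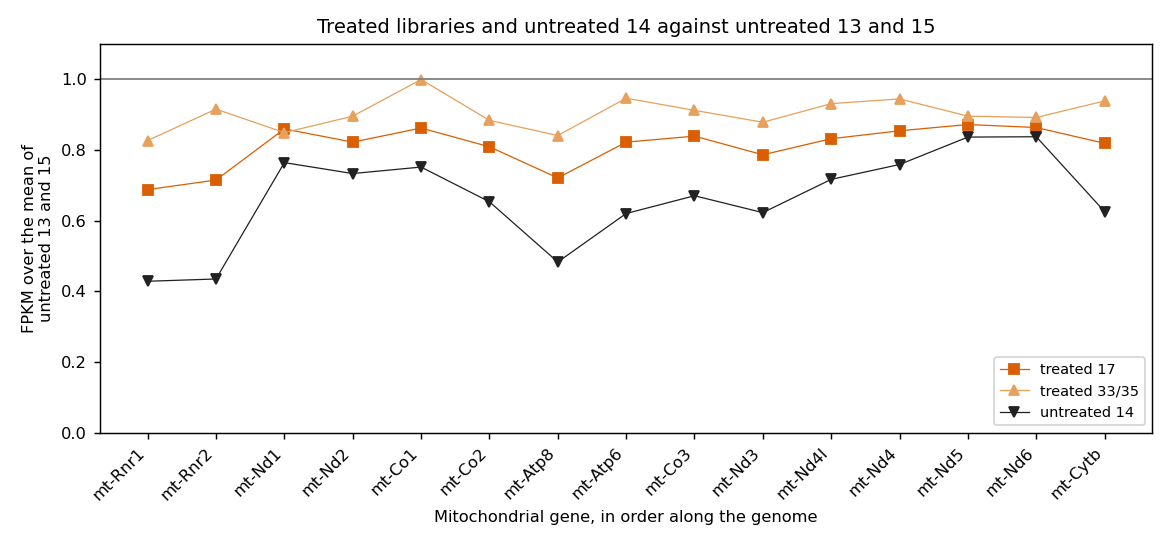
FPKM of each mitochondrial gene in treated 17, treated 33/35 and untreated 14, divided by the mean of untreated 13 and 15 (grey line at equality). Untreated 14 ran from 0.428 for mt-Rnr1 to 0.837 for mt-Nd6, and the treated libraries lay nearer to the line.

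As a share of mt- mRNA FPKM, complex I took 35.3% and 33.6% in treated 17 and treated 33/35, against 33.8%, 39.3% and 33.5% in untreated 13, 14 and 15. ATP synthase mRNAs took 32.5% and 33.9% in the treated libraries, against 35.8%, 27.9% and 34.9%. Complex IV took 23.2% and 23.3% in the treated libraries, against 21.7%, 24.2% and 22.7% in untreated 13, 14 and 15. Apart from untreated 14, the composition was therefore close across libraries. The level of each share is uncertain, since the complex IV genes, mt-Atp6 and part of complex I have nuclear copies with high values, described below. Complex IV over complex I mRNA was 0.659 and 0.694 in treated 17 and treated 33/35, against 0.644, 0.615 and 0.676 in untreated 13, 14 and 15. The log2 difference was 0.070, with treated 17 inside the untreated range (exact permutation p = 0.4; 0.933 adjusted over 7 measures).

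The nuclear genome holds copies of mitochondrial genes, inherited from mtDNA that entered chromosomes, and several of these pseudogenes had values as high as the genes themselves. In the tables, 15 annotated nuclear genes matched a mitochondrial transcript at 90% identity or more over at least 50% of their length, and 10 reached 1 FPKM in some library. Of those 10, 7 lie side by side on chromosome 1 (chr1:24611535-24616197, GRCm38, minus strand) and 3 on chromosome 2 (chr2:22587291-22590533, minus strand). Gm10925, identical to mt-Atp6 over its 678 bases, measured 7160 and 8105 FPKM in treated 17 and treated 33/35, against 8264, 5435 and 9112 FPKM in untreated 13, 14 and 15. Its ratio to mt-Atp6 was 1.00 and 0.988 in the treated libraries, against 0.998, 1.01 and 1.01. Gm28661 (mt-Co2), Gm28437 (mt-Co3), Gm10222 (mt-Nd4l) and Gm28438 (mt-Nd3) also match nearly whole genes. Over these 5 copies and 5 libraries the ratio to the mitochondrial gene ran from 0.980 to 1.02.

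Copies of only part of a gene stood lower. Gm28439, identical to the first 876 of the 1378 bases of mt-Nd4, stood at 0.734 and 0.729 of it in treated 17 and treated 33/35, against 0.724, 0.725 and 0.728 in untreated 13, 14 and 15. Gm29216, which matches the last 483 bases of mt-Co1 except for A1066T, counted from the first base of mt-Co1, stood at 0.725 and 0.721 in the treated libraries, against 0.710, 0.704 and 0.711. On chromosome 2 the copies are less alike. Gm13341, 95.9% identical to mt-Co2, stood at 0.0582 and 0.0586 in the treated libraries, against 0.0611, 0.0526 and 0.0628 in untreated 13, 14 and 15. Gm13340, 97.6% identical to mt-Co1, stood at 0.0206 and 0.0210 in the treated libraries, against 0.0204, 0.0165 and 0.0210. Gm13339, 96.7% identical to the second part of mt-Nd2, stood at 0.0238 and 0.0218 in the treated libraries, against 0.0207, 0.0214 and 0.0219. The other 5 copies stayed below 1 FPKM in all libraries.

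How reads that match several places were assigned is not given in the sources used here, and the levels of the 8 mitochondrial genes with such a copy are uncertain for that reason. The copies held 6.76% and 7.31% of the FPKM sum in treated 17 and treated 33/35, against 7.04%, 5.83% and 8.05% in untreated 13, 14 and 15. Added to their mitochondrial genes, they took the mitochondrial share to 24.2% and 26.2% in the treated libraries, against 26.3%, 20.4% and 29.3%. The difference between the groups hardly moved, at -0.15 percentage points (exact permutation p = 1). The level of complex IV over complex I mRNA was then 0.941 and 0.978 in the treated libraries, against 0.917, 0.881 and 0.958 in untreated 13, 14 and 15, and its log2 difference between the groups was 0.064. All 3 complex IV genes have such a copy, as do 4 of the 7 of complex I. The FPKM of each copy was added whole, without scaling to the length of its gene. The partial copies Gm29216 and Gm28439 therefore weigh too heavily in mt-Co1 and mt-Nd4. The level of complex IV over complex I with copies added is uncertain for that reason.

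**Figure D3:**
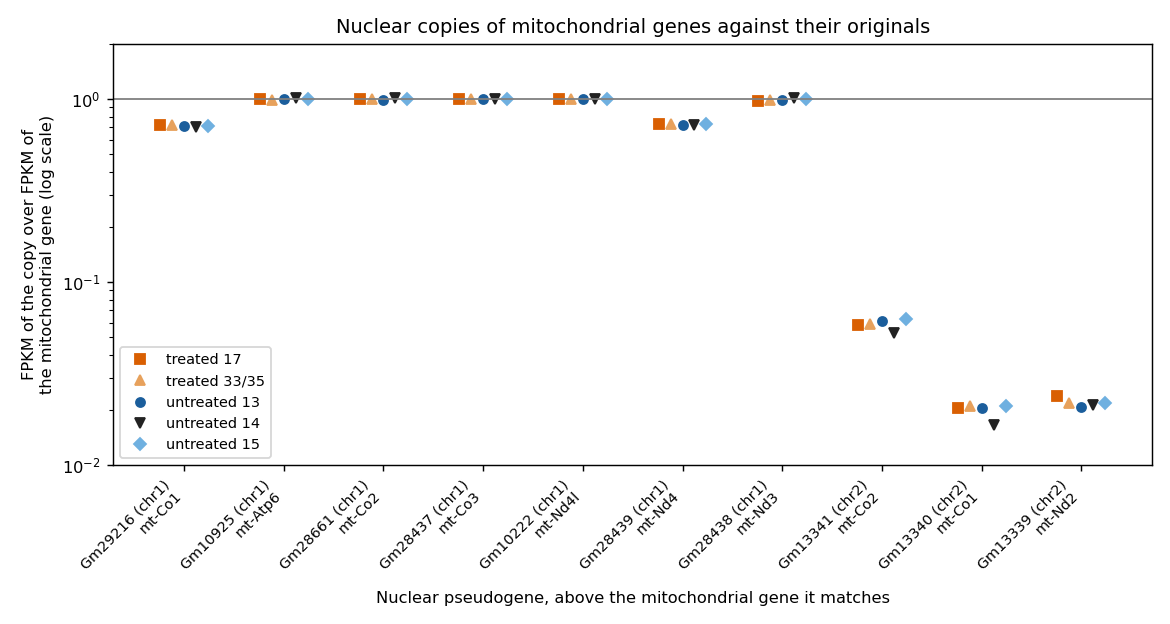
FPKM of each nuclear pseudogene divided by that of the mitochondrial gene it matches (log scale), per library, with the gene named under the pseudogene and a grey line at equality. The 5 copies of nearly whole genes on chromosome 1 lay between 0.980 and 1.02, both partial copies near 0.7, and the 3 on chromosome 2 below 0.1.

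No mitochondrial gene passed the test between treated and untreated libraries. Genes averaging 1 FPKM or more were compared on log2(FPKM + 0.5) with limma, and an adjusted p under 0.05 was the threshold. The 15 members with values entered it and the 22 tRNAs did not. Of the 15, 0 passed, with 0 at an unadjusted p under 0.05. Over all 13527 genes 6 passed (0.0444%), 4 of them higher (0.0296%) and 2 lower (0.0148%) in the treated libraries, and 125 had an unadjusted p under 0.05. The count over all genes was 158 without untreated 14 and 0 without any 1 of the other libraries. Log2 fold changes, treated minus untreated, ran from -0.10 for mt-Nd6 (SE 0.21) to 0.096 for mt-Rnr2 (SE 0.46), and the limma adjusted p was 1.00 for each. Of the mRNAs 4 were higher and 9 lower in the mean log2 value of treated libraries, but 5 were higher after scaling to the sum outside mt- genes, 4 higher and 3 at a difference of 0 after quantile normalization, and 0 higher after median ratio scaling. Their median log2 fold change was -0.022, against a median of 0.061 over all tested genes. In 0 of the 15 were both treated values above, and in 0 below, all untreated values. Over all tested genes these shares were 5.5% and 3.18%, or 8.68% in either direction.

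The standard errors were smaller without untreated 14. In that comparison all 15 members had lower means in the treated libraries, with log2 fold changes of -0.40 for mt-Rnr1 (SE 0.14) to -0.10 for mt-Co1 (SE 0.14), and the median over mRNAs was -0.19 against 0.0092 over all genes. Of the 15 members 2 had an unadjusted p under 0.05, a share similar to the 1634 of all 13368 genes in that comparison. Of the members 0 passed, with limma adjusted p of 0.377 for mt-Atp8 to 0.812 for mt-Co1. Over all genes 158 passed there (1.18%), 149 of them higher in the treated libraries. In 14 of the 15 both treated values lay below untreated 13 and 15, as in 21.1% of all genes in that comparison. Muscle markers were scarce in untreated 13 and 15 and abundant in the treated libraries, so the compound and the muscle RNA are confounded in that comparison and cannot be told apart.

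**Figure D4:**
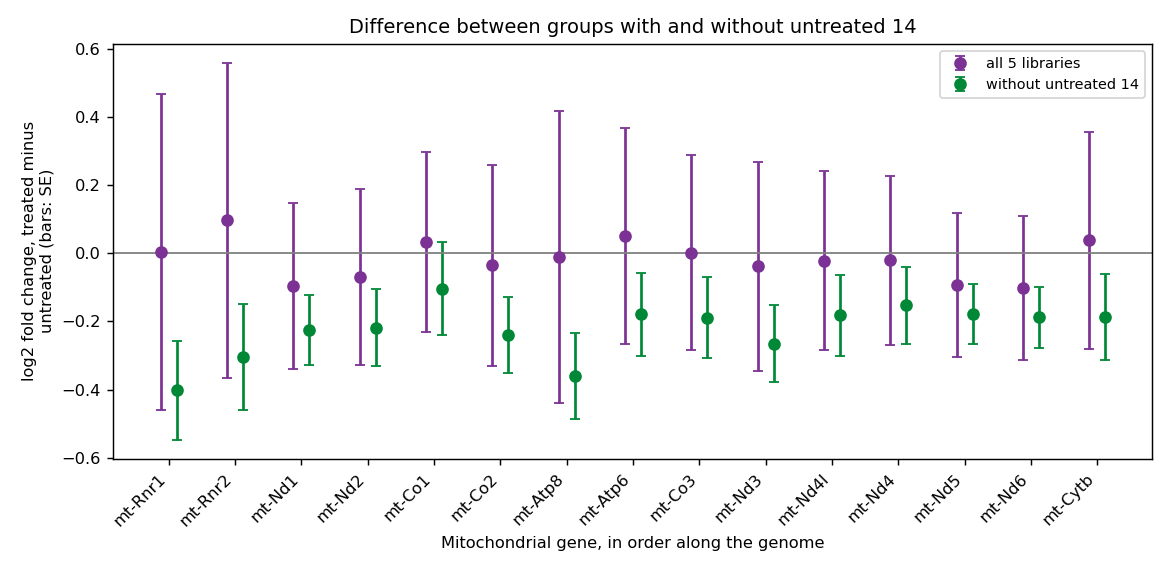
Log2 fold change of each mitochondrial gene, treated minus untreated, with its limma standard error, from all 5 libraries (purple) and without untreated 14 (green). All points without untreated 14 lay below 0, from -0.40 for mt-Rnr1 to -0.10 for mt-Co1, and none passed the test.

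The nuclear subunits of the same complexes were set beside the mitochondrial ones. The genes taken for the ATP synthase also included Atpif1, which encodes an inhibitor of the enzyme and not a subunit. Summed FPKM of the 13 mt- mRNAs over the summed FPKM of the nuclear subunits of complexes I, III and IV and the ATP synthase was 2.59 and 2.62 in treated 17 and treated 33/35, against 2.72, 2.78 and 2.81 in untreated 13, 14 and 15. Both treated values were lower than all untreated ones, including untreated 14. The log2 difference was -0.088, and p was the smallest the test allows (exact permutation p = 0.2; 0.7 adjusted over 7 measures). With the nuclear copies added to their genes the ratio was 3.62 and 3.66 in the treated libraries, against 3.75, 3.91 and 3.89 in untreated 13, 14 and 15. Partial copies were added at full FPKM there, so these levels are uncertain. By complex, without the copies added, the separation did not hold. For complex I the ratio was 2.77 and 2.68 in the treated libraries, against 2.76, 3.46 and 2.87 in untreated 13, 14 and 15. For complex III it was 1.53 and 1.58 in the treated libraries, against 1.51, 1.77 and 1.60. For complex IV it was 2.27 and 2.21 in the treated libraries, against 2.20, 2.79 and 2.29. For the ATP synthase it was 3.33 and 3.66 in the treated libraries, against 4.05, 2.52 and 4.10 in untreated 13, 14 and 15. Untreated 14 was thus highest for complexes I, III and IV and lowest for the ATP synthase.

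**Figure D5:**
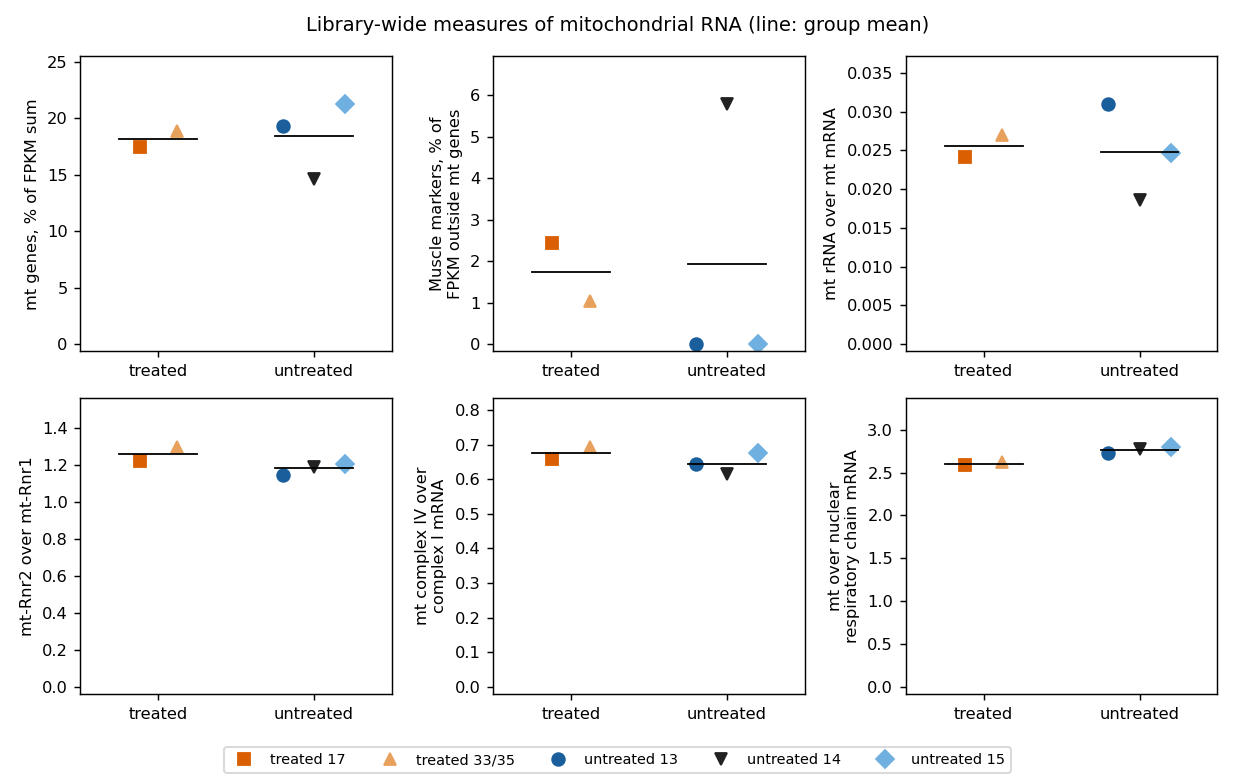
Measures per library, treated left of untreated, with a line at each group mean: share of mt- genes, share of muscle markers, and ratios of rRNA to mRNA, mt-Rnr2 to mt-Rnr1, complex IV to complex I mRNA and mitochondrial to nuclear respiratory chain mRNA. Groups did not overlap for mt-Rnr2 over mt-Rnr1 (1.22 and 1.30 in treated libraries, at most 1.21 in untreated ones) and for mitochondrial over nuclear mRNA (2.59 and 2.62, against 2.72 to 2.81), and overlapped in the other panels.

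None of the nuclear subunits passed the test over all genes. Of 36 complex I subunits 30 had higher and 6 lower log2 means in treated libraries, and their log2 fold changes had a median of 0.063, near the 0.061 of all tested genes, 35.7% of which had lower means. All 9 complex III subunits were tested, with 8 higher, 1 lower and a median of 0.11. Of 14 complex IV subunits 13 were higher, with a median of 0.10. Of 17 ATP synthase genes, Atpif1 among them, 7 were higher and 10 lower, with a median of -0.026. In 2 of the ATP synthase genes both treated values lay below all untreated ones, and in 0 of the other subunits did the groups separate, beside 3.18% lower and 8.68% in either direction over all tested genes. All 4 complex II subunits were higher, with a median of 0.15. Untreated 14 was the lowest library for 34 of 36, 9 of 9, 13 of 14, 10 of 17 and 4 of 4 of them in this order. The members of smallest p were Ndufb2 and Ndufv1 in complex I (log2 fold changes -0.12 and 0.29), Uqcrc1 and Cyc1 in complex III (0.19 and 0.19), and Sdhb and Sdha in complex II (0.17 and 0.20). In complex IV they were Cox6a2, the heart and muscle form of its subunit, and Cox8a (4.29 and 0.52). Cox6a2 measured 274 and 119 FPKM in treated 17 and treated 33/35, against 0.506, 814 and 0.478 FPKM in untreated 13, 14 and 15, which is the order of the muscle markers. In the ATP synthase they were Atp5g1 and Atp5g2, which encode the same ring subunit. Atp5g1 measured 191 and 89.8 FPKM in the treated libraries, against 12.5, 530 and 9.08 FPKM in untreated 13, 14 and 15, and Atp5g2 had a log2 fold change of -0.10. For all 10 of them the limma adjusted p was 1.00. Without untreated 14, Cox6a2 and Atp5g1 passed, with log2 fold changes of 7.51 and 3.56 (limma adjusted p = 0.0129 and 0.0474). With any 1 other library left out neither passed, and the lowest log2 fold changes were 2.66 for Cox6a2 and 0.66 for Atp5g1, both without untreated 15.

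The nuclear genes that express mtDNA did not pass the test either. Transcription and replication of mtDNA had 19 members with enough signal, 7 with higher and 12 with lower means, and a median log2 fold change of -0.033. In 1 of them both treated values were above, and in 1 below, all untreated ones. Over all tested genes these shares were 5.5% and 3.18%, so the counts are no result about this list. Polg, the replicative polymerase, had 0.19 (SE 0.17) and Top1mt, its topoisomerase, 0.27 (SE 0.27). RNA processing and decay had 20 tested members, 15 higher and 5 lower, with a median of 0.082. Hsd17b10, a subunit of mitochondrial RNase P, had 0.22 (SE 0.35) and Tbrg4, which bears on mRNA stability, 0.19 (SE 0.34). Translation factors had 12 tested members, 7 higher and 5 lower, with a median of 0.020. Mtrf1l, a release factor, had -0.22 (SE 0.19) and Mtif3, an initiation factor, 0.19 (SE 0.24). Leaving out 1 library at a time moved Mtrf1l from -0.44 to -0.0041 and Mtif3 from 0.078 to 0.39. The limma adjusted p was 1.00 for all of these.

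No gene for modifying tRNAs or rRNAs, or for charging tRNAs, passed. Both treated values exceeded all untreated ones in 1 of 19 and 2 of 22 of them, beside 5.5% of all tested genes. The counts are thus no result about these lists. Of 19 tested RNA modification genes 13 had higher and 6 lower means, and the median of their log2 fold changes was 0.044. In 1 of them, Trmt61b, both treated values exceeded all untreated ones. Trmt61b, a mitochondrial tRNA methyltransferase, measured 5.77 and 5.83 FPKM in treated 17 and treated 33/35, against 4.51, 2.85 and 4.46 FPKM in untreated 13, 14 and 15. The log2 fold change of Trmt61b was 0.53 (SE 0.24), and its limma adjusted p was 1.00. Mrm1, an rRNA methyltransferase, had 0.32 (SE 0.22). The list for charging tRNAs holds aminoacyl-tRNA synthetases, which load tRNAs with amino acids, and also Qrsl1, Gatb and Gatc, which are not synthetases. Of its 22 tested genes 12 had higher and 10 lower means, with a median of 0.050. In 2 of them the groups did not overlap, both higher, Lars2 and Qrsl1. Lars2, the leucine enzyme, measured 45.1 and 46.3 FPKM in treated 17 and treated 33/35, against 34.4, 26.7 and 34.4 FPKM in untreated 13, 14 and 15. On the log2 scale Lars2 differed by 0.52 (SE 0.18; unadjusted p = 0.0377, limma adjusted p = 1.00). Qrsl1, a subunit of the enzyme that completes glutamine tRNA, measured 14.1 and 13.3 FPKM in the treated libraries, against 12.3, 11.3 and 12.9 FPKM.

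Regulators of mitochondrial biogenesis split in direction. Among the 11 genes tested, 6 were higher and 5 lower in the mean, with a median of 0.062. In 1 of them both treated values were above, and in 2 below, every untreated value, counts too small to set against the 5.5% and 3.18% of all tested genes. Nrf1, a transcription factor for nuclear genes of mitochondria, measured 6.50 and 6.98 FPKM in treated 17 and treated 33/35, against 5.48, 5.23 and 5.53 FPKM in untreated 13, 14 and 15, a difference of 0.29 on the log2 scale (SE 0.13). Ppargc1a, the coactivator that drives biogenesis, measured 13.1 and 12.7 FPKM in the treated libraries, against 19.9, 15.0 and 16.0 FPKM, a difference of -0.37 (SE 0.18). The limma adjusted p was 1.00 for Nrf1 and for Ppargc1a. Untreated 14 was the lowest library for 4 of these 11 genes, near the 43.6% of all tested genes.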

How the data were processed

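Trizol extracts of whole brown adipose tissue were sequenced as total RNA after library preparation by an Illumina protocol, per the labels' protocols. The authors deposited 1 table of FPKM values per sample, per the file headers. Per the submitters' processing notes, CASAVA 1.7 and the build GRCm38 were used in the processing. The aligner, quantifier, annotation release, strand setting and handling of multiply matching reads are not given in the sources used here. Symbols, lengths and coordinates came from GENCODE M21 (GRCm38), which held 44395 of 45320 identifiers, and all 37 mt- genes matched.

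FPKM are not counts, so no counting interval or floor is given. Relative depth was the most common ratio to untreated 13 among genes below 2 FPKM there. Genes averaging 1 FPKM or more were tested on log2(FPKM + 0.5) with limma 3.58.1 in R 4.3.3 (variance trend, two-sided, Benjamini-Hochberg over all genes tested, residual df of the fit 3), on 2 treated and 3 untreated libraries. Fold changes on this scale understate changes of low genes. Shares and ratios were compared with exact permutation tests over libraries (scipy 1.17.1), 7 in all. Nuclear copies were found by megablast of GENCODE transcripts against mitochondrial ones. The fit was tested on simulated data with log2 changes of 1, 2 and 4. With the spread of the 5 libraries it recovered 10.8%, 48.4% and 82.8% of the changed genes. With the spread of untreated 13 and 15 it recovered 65.1%, 87.5% and 95.2%. Smaller changes were not simulated, so a small change may be missed. With the spread of the 5 libraries most log2 changes of 1 or 2 were missed as well.

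The members and lists were chosen with earlier results of these data known. All 13 mRNAs and both rRNAs were named whatever their p, tRNAs only if above 0, and of each nuclear list the members past the threshold or otherwise the 2 of smallest p; Ckm and Ucp1 stand beside them. Of nuclear copies, the 6 of highest mean were to be named, and Gm28438, Gm13339, Gm13340 and Gm13341 were added after their values were seen, as were Myh4 and Qrsl1. No identifier matched Cox4i1, Prorp, C12orf65 or Acta1, which were not analysed here. Alternatives covered the pseudocount, filter, scaling, variance model, identical tables, overlapping genes, summaries, denominators and each library left out in turn. Adding nuclear copies to their genes, and scaling outside both, were chosen after the data were seen. The FPKM of copies were added without scaling to gene length.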

Additional observations from a re-analysis of the deposited data

How the results depend on the processing

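No mitochondrial gene passed the limma test under any alternative run. The count over all genes, 6, was 2 with a pseudocount of 0.1, 0 without a filter on low values (522 at an unadjusted p under 0.05), 1 with a mean of at least 5 FPKM, and 0 to 158 with 1 library left out, 158 without untreated 14 and 0 without each of the others. The cause was not tested. With a library left out of an arm of 2, the lone sample is assumed to vary like the others.

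Directions of the mitochondrial genes were not stable. Leaving out 1 library at a time moved the log2 fold change from -0.40 to 0.27 for mt-Rnr1, -0.30 to 0.34 for mt-Rnr2, -0.23 to 0.0066 for mt-Nd1, -0.22 to 0.045 for mt-Nd2, -0.10 to 0.15 for mt-Co1, -0.24 to 0.11 for mt-Co2, -0.36 to 0.19 for mt-Atp8, -0.18 to 0.20 for mt-Atp6, -0.19 to 0.15 for mt-Co3, -0.27 to 0.11 for mt-Nd3, -0.18 to 0.10 for mt-Nd4l, -0.15 to 0.084 for mt-Nd4 and -0.19 to 0.19 for mt-Cytb. mt-Nd5 and mt-Nd6 stayed below 0, at -0.18 to -0.049 and -0.19 to -0.055. Median ratio scaling gave -0.024 for mt-Co1, -0.0063 for mt-Atp6, -0.054 for mt-Co3, -0.019 for mt-Cytb and -0.052 for mt-Rnr1. Quantile normalization gave 0.35 for mt-Nd3 and 0.064 for mt-Nd4l. Counting the identical tables separately gave 0.026 for mt-Atp8, 0.0047 for mt-Nd4l and 0.0035 for mt-Nd4. Scaling to the sum outside mt- genes gave 0.0064 for mt-Atp8, also with the nuclear copies left out of that sum (0.0064). The median over mRNAs ran from -0.19 to 0.11 with 1 library left out.

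Differences in library measures also changed sign. The share of mt- genes ran from -2.10 to 1.22 percentage points and that of mt- mRNAs from -2.01 to 1.19 with 1 library left out, and were 0.032 and 0.016 with the identical tables counted separately. The log2 difference ran from -0.11 to 0.26 for rRNA over mRNA and from -0.19 to 0.047 for mt-Nd6 over heavy-strand mRNAs. It kept its sign in every alternative run for mt-Rnr2 over mt-Rnr1 (0.047 to 0.14), for complex IV over complex I (0.032 to 0.11) and for mitochondrial over nuclear mRNA (-0.18 to -0.079). Leaving out 1 library moved Ndufv1 from -0.12 to 0.53, Uqcrc1 from -0.11 to 0.37, Cyc1 from -0.19 to 0.42, Cox8a from -0.18 to 0.92, Sdhb from -0.094 to 0.33, Sdha from -0.19 to 0.42, Hsd17b10 from -0.078 to 0.40 and Tbrg4 from -0.12 to 0.36, each lowest without untreated 14. With no change of sign, it moved Cox6a2 from 2.66 to 7.51, Atp5g1 from 0.66 to 3.56, Top1mt from 0.035 to 0.39, Ndufb2 from -0.20 to -0.032, Polg from 0.090 to 0.26, Mrm1 from 0.17 to 0.45, Trmt61b from 0.34 to 0.63, Mtrf1l from -0.44 to -0.0041 and Mtif3 from 0.078 to 0.39. No ratio of tRNA to mRNA could be had under any alternative. No paired analysis was possible because the groups share no replicate numbers. Read depth is unknown, so counting error could not be given.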
